A study of Mus musculus with 6 samples.

Results

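Of the 4200 H3K27ac peaks of LPS-treated bone marrow-derived macrophages (BMDMs), 1241 lay at gene promoters, and 275 of these promoter peaks also carried H3K4me1. These 275 regions are described here. They were selected on measured values: presence in the LPS H3K27ac peak list, overlap with the 1000 bp on either side of the start of any annotated gene, and at least 1 bp shared with a peak of the LPS or the PBS H3K4me1 list. The other 966 promoter peaks touched neither H3K4me1 list. The share with H3K4me1 at promoters was 22.2% (95% Wilson interval 19.9 to 24.6%), against 39.3% of all LPS H3K27ac peaks. Both shares follow from the selection and are given as descriptions.

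BMDMs were grown from femur and tibia marrow of C57BL/6 mice in L929-conditioned medium, a source of macrophage colony-stimulating factor. They received lipopolysaccharide (LPS), the bacterial ligand of TLR4, or PBS for 1 h. Histone marks were profiled by CUT&RUN, in which an antibody directs a nuclease to cut out the DNA around a mark. Each combination of treatment and antibody was 1 library, and 4 libraries have a peak list: LPS H3K27ac (4200 peaks), PBS H3K27ac (52), LPS H3K4me1 (73049) and PBS H3K4me1 (64758). No value below therefore has a replicate error, no test between treatments was possible, and all intervals cover counting error over the peaks of single libraries only. The libraries carried H3K4me1 at the starts of macrophage genes. A peak lay within 1000 bp of the start for 61.3% of 80 macrophage identity genes under LPS and 46.3% under PBS, against 24.1% and 15.8% of all protein-coding genes. For 50 genes of other tissues the shares were 4.0% and 10.0%, and for 42 genes of other leukocytes 19.0% and 16.7%. The 75 lysosomal genes had 52.0% and 36.0%, so a high share was not particular to the macrophage list.

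H3K27ac marks active promoters and active enhancers alike. H3K4me1 is the classical mark of enhancers. At a transcribed promoter with a CpG island, an unmethylated stretch dense in CG dinucleotides, the nucleosomes next to the start usually carry H3K4me3 instead, with H3K4me1 on the outer flanks.

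The sequences of 6 members are printed first, because the composition of the DNA was the property in which the members differed most from each other. They were chosen among members with no annotated exon base, after their values were seen. Each is the whole H3K27ac peak in GRCm38, read 5′ to 3′ on the strand of the named gene, with every CG in capitals. Rc3h1, Larp7 and Hdac2 are CpG rich, with 22, 16 and 15 CG dinucleotides in 212, 149 and 140 bp.
Rc3h1 (chr1:160906801-160907012, + strand): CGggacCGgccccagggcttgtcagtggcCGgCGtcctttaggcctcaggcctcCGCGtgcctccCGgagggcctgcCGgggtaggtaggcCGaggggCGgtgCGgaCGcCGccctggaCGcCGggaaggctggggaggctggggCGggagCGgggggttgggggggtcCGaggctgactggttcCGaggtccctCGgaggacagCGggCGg
Larp7 (chr3:127553004-127553152, - strand): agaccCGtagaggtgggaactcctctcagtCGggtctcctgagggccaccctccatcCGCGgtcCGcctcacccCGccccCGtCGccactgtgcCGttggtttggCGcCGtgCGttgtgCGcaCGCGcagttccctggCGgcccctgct
Hdac2 (chr10:36974328-36974467, + strand): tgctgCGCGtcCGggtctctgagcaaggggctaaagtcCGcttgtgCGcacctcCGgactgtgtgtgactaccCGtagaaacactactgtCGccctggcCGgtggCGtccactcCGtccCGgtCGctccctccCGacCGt
Mx1, Acod1 and Igtp are interferon-responsive genes whose peaks were CpG poor, with 2, 0 and 5 CG dinucleotides in 179, 156 and 150 bp.
Mx1 (chr16:97463020-97463198, - strand): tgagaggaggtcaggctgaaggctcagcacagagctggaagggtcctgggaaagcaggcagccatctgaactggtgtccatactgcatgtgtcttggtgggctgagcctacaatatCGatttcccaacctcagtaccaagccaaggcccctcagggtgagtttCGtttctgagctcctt
Acod1 (chr14:103046636-103046791, + strand): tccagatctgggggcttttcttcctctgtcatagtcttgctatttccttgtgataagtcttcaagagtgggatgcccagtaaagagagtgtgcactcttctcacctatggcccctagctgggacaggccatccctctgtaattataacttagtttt
Igtp (chr11:58199281-58199430, + strand): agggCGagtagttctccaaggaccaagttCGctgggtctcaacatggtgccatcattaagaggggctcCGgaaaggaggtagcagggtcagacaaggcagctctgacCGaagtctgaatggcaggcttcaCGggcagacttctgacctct
At Hdac2, Mx1 and Acod1 an H3K4me1 peak was present in both lists, and at Rc3h1, Larp7 and Igtp only in the LPS list.

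The members fell into 3 classes by the list that held the H3K4me1 peak. It was present in both lists for 92 members (33.5%, 28.1 to 39.2%), in the LPS list alone for 131 (47.6%, 41.8 to 53.5%) and in the PBS list alone for 52 (18.9%, 14.7 to 24.0%). Among the 1377 distal H3K27ac peaks with H3K4me1 the corresponding shares were 67.0%, 19.2% and 13.7%. Presence in 1 list alone did not always mean a distant H3K4me1 peak in the other. Of the 131 LPS-only members, 30 (22.9%) had a PBS H3K4me1 peak within 500 bp, and the median gap was 1362 bp. Of the 52 PBS-only members, 23 (44.2%) had an LPS H3K4me1 peak within 500 bp, with a median gap of 689 bp. The same limit holds for the promoter peaks called without H3K4me1, which lack an overlap and not always a nearby peak. Of these 966, 257 (26.6%) had an H3K4me1 peak of either list within 500 bp, and 423 (43.8%) within 1000 bp. When the LPS H3K4me1 list was held to the 64758 strongest peaks, the length of the PBS list, 258 members remained and 33.3% were in both lists.

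The H3K4me1 peaks at these promoters differed in width between classes. In both-list members the H3K4me1 peak of the LPS list had a median width of 731.5 bp, and that of the PBS list 476.5 bp. In LPS-only members the median was 316 bp and in PBS-only members 312.5 bp, close to the whole-list medians of 353 and 335 bp. Median −log10 q of the H3K4me1 peak was 7.77 in both-list members against 5.19 in LPS-only members within the LPS list, and 6.97 against 5.14 in PBS-only members within the PBS list. Presence in both lists and H3K4me1 strength come from the same peak calls, so these medians are a description. The 2 marks mostly coincided in position. Of the 223 members with an LPS H3K4me1 peak, 182 (81.6%, 76.0 to 86.1%) had their H3K27ac summit inside it, and in 119 (53.4%) the summits of both marks lay within 150 bp of each other. For the 144 members with a PBS H3K4me1 peak these shares were 79.2% and 49.3%.

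CpG content separated the classes. A summit was called CpG rich when the 400 bp around it had at least 50% GC and a CpG observed to expected ratio of at least 0.6. This held for 74 of 131 LPS-only members (56.5%, 47.9 to 64.7%), 16 of 52 PBS-only members (30.8%, 19.9 to 44.3%) and 15 of 92 both-list members (16.3%, 10.1 to 25.2%). The difference between LPS-only and both-list members was 40.2 percentage points (95% Newcombe interval 27.9 to 50.4). Read the other way, 70.5% of the 105 CpG-rich members and 33.5% of the 170 others had H3K4me1 in the LPS list alone. Promoter peaks without H3K4me1 were CpG rich in 472 of 966 cases (48.9%). Against them the difference was −32.6 points (−39.5 to −23.1) for both-list members and 7.63 points (−1.49 to 16.4) for LPS-only members, an interval that includes 0. Distal H3K27ac peaks with H3K4me1 were CpG rich in 14 of 1377 cases (1.02%).

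**Figure D1:**
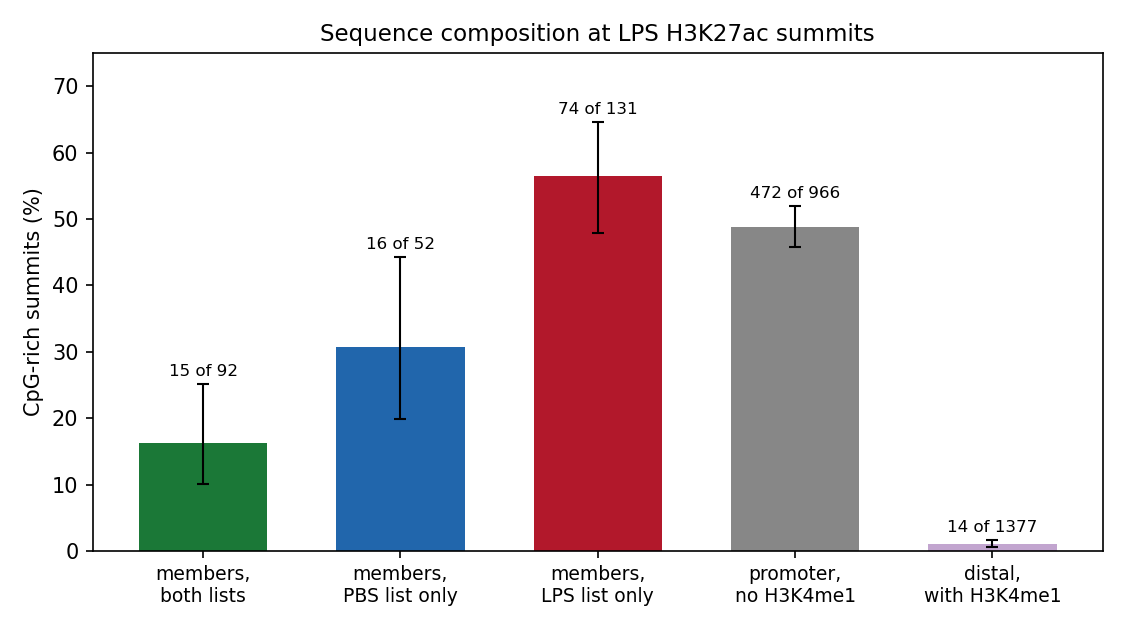
Share of LPS H3K27ac summits called CpG rich (%), for members by the list that holds their H3K4me1 peak and for 2 other sets of LPS H3K27ac peaks. Bars give the share, error bars the 95% Wilson interval, and the label the count. The bar rises from 16.3% in both-list members to 56.5% in LPS-only members, which stand near the 48.9% of promoter peaks without H3K4me1.

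The same split was present at gene starts in general and was not particular to acetylated promoters. Over all protein-coding starts with an H3K4me1 peak within 200 bp, 55.5% of 3195 CpG-rich starts had it in the LPS list alone and 23.8% in both lists. Of 1188 other starts 38.1% had it in the LPS list alone and 42.5% in both. Within 300 bp of the start the members showed the split as well. There, 58 of 79 CpG-rich members were LPS only and 11 in both lists, whereas 26 of 69 other members were LPS only and 31 in both.

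Over all classes, members were CpG rich less often than promoter peaks without H3K4me1, at 105 of 275 (38.2%, 32.6 to 44.0%) against 48.9%, a difference of −10.7 points (−17.1 to −4.02). The interval lay below 0 in 6 of 8 other settings and included 0 in the others. With the starts of protein-coding genes alone the difference was −1.43 points (−9.04 to 6.17), and with an H3K27ac −log10 q of at least 5 it was −7.80 (−18.2 to 2.91). With protein-coding genes alone the difference between LPS-only and both-list members was 30.5 points (13.5 to 44.9).

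**Figure D2:**
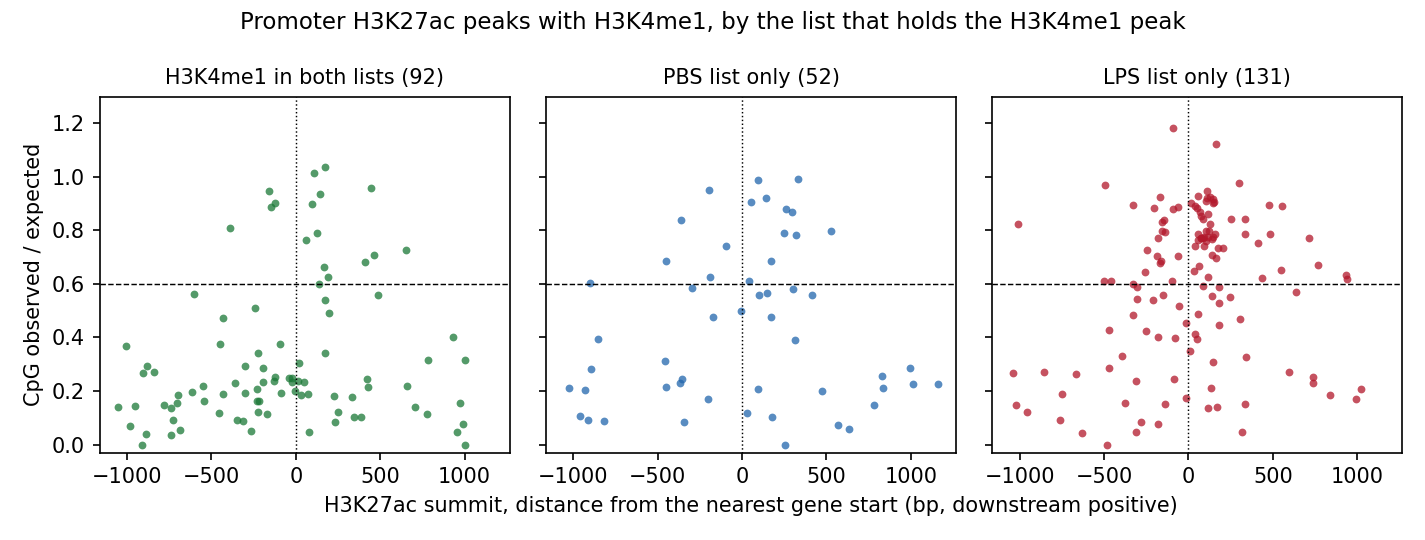
CpG observed to expected ratio in the 400 bp around the H3K27ac summit against the distance of the summit from the nearest gene start (bp, positive downstream), 1 point per member and 1 panel per class. The dashed line is the 0.6 limit and the dotted line the gene start. LPS-only members gather above the line close to the start, and both-list members mostly lie below it across the window.

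The type of gene moved with the class. The nearest gene was protein-coding for 189 of 275 members (68.7%) and for 83.5% of promoter peaks without H3K4me1, a difference of −14.8 points (−20.9 to −9.07). This came from the both-list members, of which 43 of 92 (46.7%) had a protein-coding gene, against 80.9% of LPS-only and 76.9% of PBS-only members. Both-list members lay instead at starts of lincRNAs (13, 14.1%), antisense transcripts (11, 11.96%) and unreviewed transcripts that GENCODE lists for experimental testing (14, 15.2%). Among promoter peaks without H3K4me1 lincRNAs made up 2.48%, antisense transcripts 5.38% and such unreviewed transcripts 1.55%. Of distal H3K27ac peaks with H3K4me1, 52.0% had a protein-coding gene nearest and 10.5% a lincRNA. Both-list members differed from them by −5.26 points (−15.5 to 5.20) and 3.67 points (−2.27 to 12.4). For antisense and unreviewed transcripts these differences were 6.00 points (0.673 to 14.3) and 7.66 points (1.54 to 16.5). Among all promoter H3K27ac peaks, 86 of 245 at other gene types (35.1%) and 189 of 996 at protein-coding genes (19.0%) carried H3K4me1. The 2 members at Gm43147, an unreviewed transcript, lay in the strongest LPS H3K4me1 peak met by any member, which was 3129 bp wide with a −log10 q of 21.3. The member at the antisense gene 4933423P22Rik lay in an LPS H3K4me1 peak of 3623 bp, with a −log10 q of 21.2.

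Summits of members lay downstream of the start less often than those of other promoter peaks. Within 300 bp of the nearest start were 148 of 275 members (53.8%) and 44.9% of peaks without H3K4me1, a difference of 8.89 points (2.198 to 15.5). A further 69 members (25.1%) lay more than 300 bp upstream, against 16.0% (difference 9.05, 3.70 to 14.9). More than 300 bp downstream lay 58 members (21.1%), against 39.0% (difference −17.9, −23.3 to −11.9). Expressed as shares with H3K4me1, the promoter peaks had it in 30.8% of upstream, 25.4% of central and 13.3% of downstream positions. LPS-only members were the most central, at 64.1% within 300 bp, against 45.7% in both-list and 42.3% in PBS-only members. The interval of the surplus within 300 bp lay above 0 in 3 of 8 other settings. It included 0 with the starts of all annotated transcripts (−0.121 points, −5.87 to 5.53), windows of 2500 bp (0.614, −4.68 to 6.08) and 500 bp (6.48, −0.891 to 13.4), and a −log10 q of at least 5 for H3K27ac (10.4, −0.33 to 20.6) or H3K4me1 (4.60, −3.22 to 12.4).

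**Figure D3:**
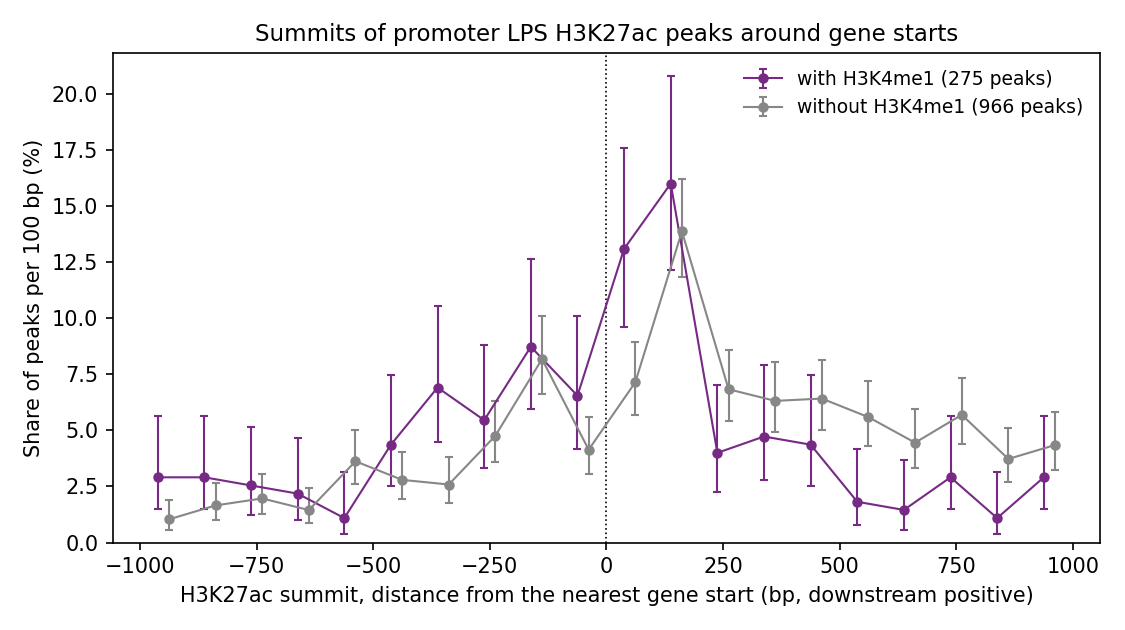
Share of promoter LPS H3K27ac peaks (%) by the distance of the summit from the nearest gene start, in steps of 100 bp, for the 275 members and the 966 promoter peaks without H3K4me1. Error bars are 95% Wilson intervals. Both sets peak 100 to 200 bp downstream (16.0% and 13.9%), members are the larger share just after the start (13.1% against 7.14% in the first 100 bp), and peaks without H3K4me1 extend further downstream.

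By annotation, 85 members (30.9%) had an intergenic summit, against 20.3% of promoter peaks without H3K4me1 (difference 10.6 points, 4.81 to 16.8). Summits in introns made up 29.1% of members against 40.5%, and 21.8% of members had the summit in a UTR, against 19.9%. A UTR held the summit in 29.0% of LPS-only and 11.96% of both-list members. Of the members, 4 (1.45%) had a mostly repeat-masked summit, against 2.28% of promoter peaks without H3K4me1.

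The −log10 q of the H3K27ac peak reached 5 in 113 of 275 members (41.1%) and in 32.8% of promoter peaks without H3K4me1, a difference of 8.28 points (1.86 to 14.8). The interval lay above 0 in 4 of 7 other settings and included 0 with the starts of all transcripts (5.36, −0.124 to 10.99), an overlap of 50% (5.61, −1.28 to 12.8) and an H3K4me1 −log10 q of at least 5 (7.30, −0.185 to 15.1). It reached 5 in 47.3% of LPS-only, 44.2% of PBS-only and 30.4% of both-list members. Median width was 162 bp in members and 160 bp without H3K4me1. Median fold enrichment was 5.64 and 5.49. All members rested on few fragments, with 5 to 31 at the summit and a median of 11, and 122 members had at most 10. A further H3K27ac peak 1 to 10 kb away was found for 62 members (22.5%) and 21.2% of promoter peaks without H3K4me1 (difference 1.32 points, −3.95 to 7.17). Both-list members had one in 29.3% of cases and LPS-only members in 16.0% (difference −13.3 points, −24.6 to −2.29).

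The 4 strongest members lay at CpG-rich promoters. The highest −log10 q, 21.1, was reached at Tnrc6a, a scaffold of microRNA-mediated silencing (chr7:123123913-123124080, fold enrichment 11.98, 29 fragments at the summit), with H3K4me1 in the PBS list alone. Bccip, which encodes a BRCA2-interacting protein and shares its promoter with Uros, also reached 21.1 (chr7:133709131-133709278, fold 11.3, 31 fragments), with H3K4me1 in the LPS list alone. Cspp1, a centrosome protein gene that shares the promoter with Cops5, reached 16.6, and Tbce, a tubulin-folding cofactor, 15.3. Both had H3K4me1 in the LPS list alone. All of these summits lay within 150 bp of a start. Next came Irgm1 (14.2), the lincRNA Gm12589 (14.1), the thioredoxin gene Txn1 (13.0) and the antisense gene Gm9917 (12.9). The dynein subunit gene Dync1li2 (12.2) and Cpsf2 (11.6) followed. Cpsf2 encodes a subunit of the complex that cleaves pre-mRNA for polyadenylation. Of the 101 LPS H3K27ac peaks that ranked 1 to 100 by q, ties included, 16 were members (15.8%), beside 275 of all 4200. The widest members were at Gm12589 (1275 bp), Txn1 (950 bp), the cytochrome oxidase assembly gene Cox20 (927 bp), Irgm1 (778 bp) and the helicase gene Ascc3 (702 bp). The strongest PBS H3K4me1 peaks met by members were at Acod1 (−log10 q 19.9, 1524 bp wide) and Amn1 (19.6, 628 bp).

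The members named 261 genes, 14 of them with 2 members each, among them Csf3r, Mx2, Trim30a and H2-T24. In 58 members (21.1%) more than 1 gene start lay in the window, so the peak could not be assigned to a single gene. Of promoter peaks without H3K4me1 this held for 27.5%. In all, 321 genes had a start within 1000 bp of a member, and 35 of these also had a promoter peak without H3K4me1.

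Genes of the late and interferon response had the highest share at members among 11 gene lists. Of 70 such genes, 12 had a member within 1000 bp of the start (17.1%, 10.1 to 27.6%), against 1.04% of all protein-coding genes, and 17 had a promoter peak without H3K4me1 (24.3%), against 4.1%. Counted over the 24 genes with either kind of peak, 12 had a member (interval 31.4 to 68.6%), against 227 of 1096 protein-coding genes (20.7%). The 24 genes held 13 members and 24 other promoter peaks, and the 1096 genes 202 and 857. A gene with more promoter peaks has more chances of a member. Of the 70 starts, 47.1% had an LPS and 37.1% a PBS H3K4me1 peak within 1000 bp, against 24.1% and 15.8% of all protein-coding genes. None of the 13 members at these genes was CpG rich, a count of 0 that allows a share of up to 23.1%, and of the 24 promoter peaks without H3K4me1 at genes of this list 1 was. H3K4me1 was in both lists for 4 of them, in the LPS list for 5 and in the PBS list for 4. Several of these genes belong to families of near-identical copies, where reads of one copy can be placed on another.

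Among the interferon-inducible GTPases, Irgm1 had an intergenic member (chr11:48871865-48872642, summit 472 bp upstream, −log10 q 14.2). This member met H3K4me1 in a small LPS peak of 152 bp with a −log10 q of 2.15. Igtp and Irgm2 shared 1 member in the space between their starts (chr11:58199281-58199430, −log10 q 7.86). Mx1 had a member 170 bp upstream (chr16:97463020-97463198, −log10 q 7.45). The summit of this member lay 9 bp from that of a 1255 bp LPS H3K4me1 peak with a −log10 q of 19.0, and within a 1056 bp PBS peak. Mx2, the neighbour of Mx1, is annotated as a polymorphic pseudogene. It had 2 members downstream of the start (−log10 q 11.03 and 9.83), both with H3K4me1 in the PBS list alone. The nearest LPS H3K4me1 peaks were 679 and 136 bp away. Mx1 and Mx2 thus differed in the class of their H3K4me1 although they lie next to each other.

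Among genes of RNA sensing and effector function, Ifit1, which binds viral RNA, shared a member with Ifit1bl2 (chr19:34640286-34640713, −log10 q 7.55, LPS only). Oas2, an oligoadenylate synthetase, had a member with H3K4me1 in both lists (−log10 q 3.42). Its relative Oasl2 and the ubiquitin-like modifier Isg15 had members with H3K4me1 in the PBS list alone (2.41 and 2.93). Acod1, which makes the antibacterial metabolite itaconate, had a member 266 bp upstream with H3K4me1 in both lists (chr14:103046636-103046791, −log10 q 3.75, 8 fragments). The cytokine gene Il18 had one 954 bp upstream, also in both lists (chr9:50553801-50553929, 5.19). Trim30a had 2 LPS-only members upstream (6.47 and 5.03) under a single H3K4me1 peak. Of the 12 genes, 5 also had a promoter H3K27ac peak without H3K4me1, namely Irgm1, Mx2, Ifit1, Isg15 and Oasl2. These other peaks were the stronger ones at Mx2 (14.9), Isg15 (6.21) and Oasl2 (7.46). Casp4 and Parp14, named after their values were seen, had promoter H3K27ac peaks without H3K4me1 alone, with −log10 q of up to 16.1 and 13.3.

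Macrophage identity genes came next, with 7 of 80 at members (8.75%, 4.30 to 17.0%) and 13 at promoter peaks without H3K4me1. Of the 8 members 6 were LPS only, 1 PBS only and 1 in both lists, and 0 were CpG rich, which allows up to 37.5%. The 15 promoter peaks without H3K4me1 at genes of this list were not CpG rich either. Over the 17 genes with either kind of peak, 7 had a member (41.2%, 21.6 to 64.0%). Ly96, the MD-2 subunit that binds LPS for TLR4, had the strongest (chr1:16688009-16688222, −log10 q 9.88), with an overlapping H3K4me1 peak in the PBS list alone. Csf3r, the receptor for granulocyte colony-stimulating factor, had 2 (8.49 and 3.75). The NADPH oxidase genes Ncf1 (6.31) and Ncf4 (2.61), the inhibitory Fc receptor gene Fcgr2b (3.24) and the tetraspanin gene Cd53 (2.41) had LPS-only members. For Ncf4 and Fcgr2b a PBS H3K4me1 peak lay 88 and 117 bp away. Gpnmb, a transmembrane glycoprotein gene, had a member in both lists (4.17).

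Genes of the primary LPS response had a member in 3 of 126 cases (2.38%, 0.813 to 6.77%), an interval that includes the 1.04% of all protein-coding genes, and 15 had a promoter peak without H3K4me1. The 3 were the chemokine gene Ccl4, Traf1, an adaptor of TNF receptor signalling, and Sqstm1, the autophagy receptor p62. The Ccl4 member (chr11:83661730-83661866, 819 bp upstream, −log10 q 6.33) had H3K4me1 in the PBS list alone. That at Traf1 (3.56) had it in both lists, and Sqstm1 shared a member with Mgat4b. TLR and NF-kB signalling genes numbered 2 of 82 (2.44%), Ly96 and Traf1. Over genes with either kind of peak, members were present at 3 of 17 primary response genes (17.6%, 6.19 to 41.0%) and at 2 of 15 signalling genes (13.3%, 3.74 to 37.9%), intervals that include the 20.7% of all protein-coding genes.

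Lists of general cell function gave RNA processing 4 of 93 (4.30%, 1.69 to 10.5%, at Tnrc6a, Cpsf2, Luc7l2 and Hnrnpa0), against 1.04% of all protein-coding genes. Chromatin and transcription had 2 of 98 (Hdac2 and Kdm4a), mitochondrial respiration 1 of 76 (Ndufb9, shared with Tatdn1) and translation 1 of 117 (Rpl21). Over genes with either kind of peak, members were at 4 of 20 RNA processing genes (20.0%, 8.07 to 41.6%), beside 20.7% of all protein-coding genes. They were at 2 of 15 chromatin genes (13.3%, 3.74 to 37.9%) and 1 of 9 respiration genes (11.1%, 1.99 to 43.5%). Of the translation genes 19 had a promoter peak without H3K4me1, so that 1 of the 20 with either kind of peak had a member (0.888 to 23.6%). No lysosomal gene of 75 had one, which allows a share of up to 4.87%, and 0 of the 10 with either kind of peak had one (up to 27.8%). Both translation and lysosome intervals include the 20.7% of all protein-coding genes. The 4 RNA processing members were all CpG rich, as were 15 of the 19 promoter peaks without H3K4me1 at genes of that list. Genes of other leukocytes (0 of 42, up to 8.38%) and of other tissues (0 of 50, up to 7.13%) had neither kind of peak.

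**Figure D4:**
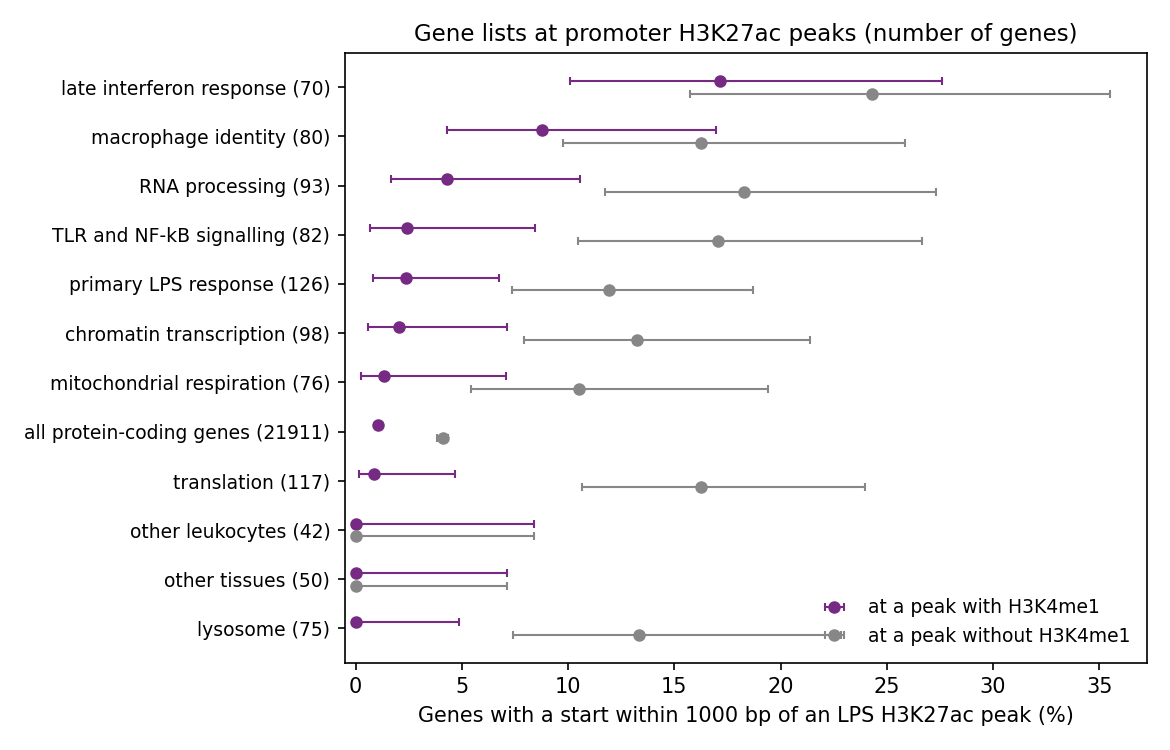
Share of the genes of each list (%) with a start within 1000 bp of a member and of a promoter peak without H3K4me1, with the number of genes in brackets and 95% Wilson intervals. The late interferon response list stands highest for members (17.1%), followed by macrophage identity (8.75%). The member intervals of the translation (0.855%) and lysosome (0%) lists include the 1.04% of all protein-coding genes.

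In all, 13 short DNA motifs were counted in the 400 bp around each summit, on both strands. The YY1 letters AAGATGGCG were present in 1.45% of members and 4.97% of promoter peaks without H3K4me1 (difference −3.51 points, −5.31 to −0.986). For the CRE, C/EBP, NRF1, E-box and TATA letters, the interval of the difference between these sets included 0. The AP-1 letters TGANTCA were present in 14.2% of members and 7.76% of promoter peaks without H3K4me1 (difference 6.42 points, 2.34 to 11.3), and at 7.72% of all protein-coding starts in windows of the same length. Both-list members had them in 22.8% of cases, close to the 21.1% of distal H3K27ac peaks with H3K4me1, and LPS-only members in 9.92%. The PU.1 letters GAGGAAGT, whose last 6 bases also end the ETS letters CCGGAAGT, were present in 8.0% of members and 3.62% of promoter peaks without H3K4me1 (difference 4.38, 1.38 to 8.32), and at 3.73% of all starts. Distal H3K27ac peaks with H3K4me1 had the PU.1 letters in 8.57% of cases. The ETS letters were present in 8.36% of members, 5.18% of promoter peaks without H3K4me1 (difference 3.19, 0.0353 to 7.25) and 5.40% of all starts. The IRF letters GAAANNGAA were present in 10.5% of members, 13.8% of promoter peaks without H3K4me1 (difference −3.22, −7.09 to 1.43) and 10.3% of all starts. The NF-kB letters GGANNTTCC were found in 8.0% of members, 6.21% of promoter peaks without H3K4me1 and 5.92% of all starts. The SP/KLF letters GGGCGGGG and the NFY letters CCAATC, common at CpG-rich promoters, were present in 22.9% and 19.8% of LPS-only members and in 10.9% and 6.52% of both-list members. At all starts they were present in 24.3% and 19.7%. These matches describe the sequence, not binding. An AP-1 match at the interferon-inducible gene Ifi27 and an IRF match at Il18 show such letters in members with H3K4me1 in both lists, and are in capitals below.
Ifi27 (chr12:103435117-103435284, + strand): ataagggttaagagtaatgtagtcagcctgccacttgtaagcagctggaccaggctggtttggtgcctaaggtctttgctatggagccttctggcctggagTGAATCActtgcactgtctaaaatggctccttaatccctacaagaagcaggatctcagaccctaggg
Il18 (chr9:50553801-50553929, + strand): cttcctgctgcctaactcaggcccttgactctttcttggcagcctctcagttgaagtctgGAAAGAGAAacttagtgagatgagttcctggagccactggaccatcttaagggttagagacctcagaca

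Acetylation under PBS was read from the short PBS H3K27ac list. It overlapped 1 of 275 members (0.364%), the peak at Mgat4b and Sqstm1 (chr11:50210881-50211452, 572 bp wide, −log10 q 6.31), against 0.357% of all LPS H3K27ac peaks. Most members thus had no called acetylation under PBS, as had nearly all LPS H3K27ac peaks, while 144 of 275 had an H3K4me1 peak under PBS. With 52 peaks in the PBS H3K27ac list, absence from it does not show that a promoter lacked the mark.

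At the limits of the selection, the members farthest from a start were at Crk (999 bp) and Gm42941 (967 bp), and the nearest H3K27ac peaks with H3K4me1 outside the window were at Gm39556 (1009 bp) and Gm17083 (1032 bp). The smallest overlaps with H3K4me1 were 6 bp at D6Wsu163e and 7 bp at 1810059C17Rik. Among peaks left out, that at Ube2r2 abutted an H3K4me1 peak (gap 0 bp) and that at Pik3cg lay 3 bp away.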

How the data were processed

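Deposited peak lists of 4 CUT&RUN libraries were used. According to the methods, the authors aligned paired-end reads to GRCm38 with Bowtie2 2.4.4, removed blacklisted regions and called peaks per library with MACS2 2.2.7.1. The fold enrichment that the authors deposited is a ratio of summit coverage to local background, with the same constant added to both. It is therefore smaller than the plain ratio. The deposited −log10 p-value and −log10 q-value belong to the summit. All of these values were used within a list only, since they depend on depth and background. Whether the IgG libraries served as control for peak calling is not given in the sources used here. The whole-number score was not used, nor were the 2 IgG libraries. Lists give no read totals, so fragment numbers were recovered from fold enrichment and p, which matched within 0.002 in −log10 p for 4200 of 4200 LPS H3K27ac peaks. On 4000 simulated peaks the number was recovered for 100% of peaks.

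Overlaps were checked with bedtools 2.31.1, and planted overlaps in simulated lists were all recovered. Gene starts were those of gene records in GENCODE M21 on GRCm38 (the authors used VM23) and sequences were read from the GRCm38 RefSeq genome. Peaks were named for the gene start nearest to the summit. Named members were the 10 with the highest −log10 q, the 5 widest, the first 25 by −log10 q at genes of the primary LPS, TLR and NF-kB, interferon and macrophage lists, the 5 with the strongest H3K4me1 in each list, those with PBS H3K27ac and those at the limits of the selection. Genes of the other lists and members with printed sequence are named beyond this rule. Of 81 macrophage and 94 RNA processing symbols 80 and 93 were found in GENCODE, and of the other lists all. Shares have 95% Wilson and differences 95% Newcombe intervals (Python 3.11.15, scipy 1.17.1), for counting error only. Where no member of a gene list was CpG rich, the share allowed is an approximate limit and not a Wilson limit. Each group is 1 library, so no p-value is given. The members and lists were chosen with earlier results of these data known.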

Additional observations from a re-analysis of the deposited data

How the results depend on the processing

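No paired analysis was possible because each treatment and antibody has 1 library. Values were recomputed under 8 other settings. The number of members was 215 with a 500 bp window, 407 with a 2500 bp window, 381 with the starts of all transcripts, 202 with protein-coding genes alone, 219 with 50% of the peak inside H3K4me1 and 258 with H3K4me1 lists of equal size. With a 2500 bp window the share of promoter peaks with H3K4me1 was 25.1%, the share of members in both lists 39.8% and the difference within 300 bp of the start 0.614 points. With the starts of all transcripts these were 24.6%, 40.4% and −0.121 points. With protein-coding genes alone the first 2 were 19.1% and 22.8%, the CpG-rich difference −1.43 points and the difference in further H3K27ac peaks −2.57 points. With 50% of the peak inside H3K4me1 the share was 17.6%. With a −log10 q of at least 5 for H3K27ac, 113 members were left, the shares were 26.3% and 24.8%, and the difference in further peaks was −7.47 points; the difference in strength could not be computed there. With the same limit on H3K4me1, 181 members were left, the share was 14.6%, the CpG-rich difference −17.6 points and the difference in further peaks 8.45 points. The cause was not tested.

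The larger share of CpG-rich summits in LPS-only than in both-list members was recomputed under the same settings, a choice made after seeing the data. It ranged from 30.5 to 43.5 points, and its interval lay above 0 in 8 of 8. What limits these results is depth, at a median of 11 fragments per summit, and the single library per treatment: whether LPS-only and PBS-only H3K4me1 peaks differ between treatments or between libraries cannot be told apart.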
